A study of Mus musculus with 6 samples.

Results

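The collagen chain genes are those whose single symbol in the array's probe annotation reads Col, a number, a and a number, such as Col1a1. The rule uses names alone and no measured value. It found 42 genes with 82 probe sets, of 18193 genes measured, and each gene was read from the brightest of its probe sets, by mean level on the 6 arrays. They were split into 11 fibrillar collagens, 10 basement membrane collagens and 21 other collagens. The skin came from mice of the inbred strain C3H/HeJ, in which alopecia areata, an autoimmune hair loss, can arise spontaneously. The alopecic group held affected skin of 3 mice with alopecia areata, and the unaffected group held skin of 3 other mice. Each mouse gave total RNA for 1 array. No treatment, transgene, age, body site or hair cycle stage is given in the sources used here. All levels are log2 RMA values as the authors deposited them, and a difference of 1 is a doubling. Levels of different genes come from different probes, so their order was not read as an order of abundance. Brightness served only to choose probe sets and genes to name and, against the array median, to mark dim signals.

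Collagens are triple helices of 3 chains, and each chain is encoded by its own gene. Fibrillar collagens, chiefly types I, III and V in skin, form the cables that give the dermis its strength. Type IV collagen forms the sheet-like network of basement membranes around epidermis, hair follicles, vessels and nerves, and types VII and XVII fasten the epidermis to it. The other types decorate fibrils, form beaded filaments or span cell membranes. The comparison asked whether the matrix genes of the dermis and basement membrane differ between alopecic and unaffected skin.

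None of the 42 collagen genes passed the test. The test was limma with Benjamini-Hochberg adjustment over all 18193 genes and a threshold of 0.05, and 0.275% of all genes passed it. The smallest adjusted p among the members was 0.691 by limma. At an unadjusted limma p under 0.05 there were 2 members, Col4a4 and Col8a2, both lower in alopecic skin, against 7.15% of all genes (4.8% higher and 2.35% lower). The means were higher in alopecic skin for 21 members, against 48.6% of all genes, and lower for 21, and the median log2 difference was -0.01, as it was over all genes (-0.01). By class the medians were 0.10 for the fibrillar, -0.05 for the basement membrane and -0.03 for the other collagens. Without unaffected replicate 3, an array that stood apart, they were -0.06, -0.12 and 0.01, and 0 members passed. The groups did not overlap for 5 members, Col14a1 and Col16a1 above and Col4a4, Col4a6 and Col8a2 below, while 13.1% of all genes did not overlap, 6.93% above and 6.12% below. The data do not show that the levels were alike. The 95% interval of the difference lay within 1 log2 unit of 0 for 23 of the 42 members (54.8%), against 74.1% of all genes, so for the other 19 members a change of 2-fold was inside the interval or at its edge. In bulk skin, fewer cells of a type and less RNA per cell cannot be told apart.

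**Figure D1:**
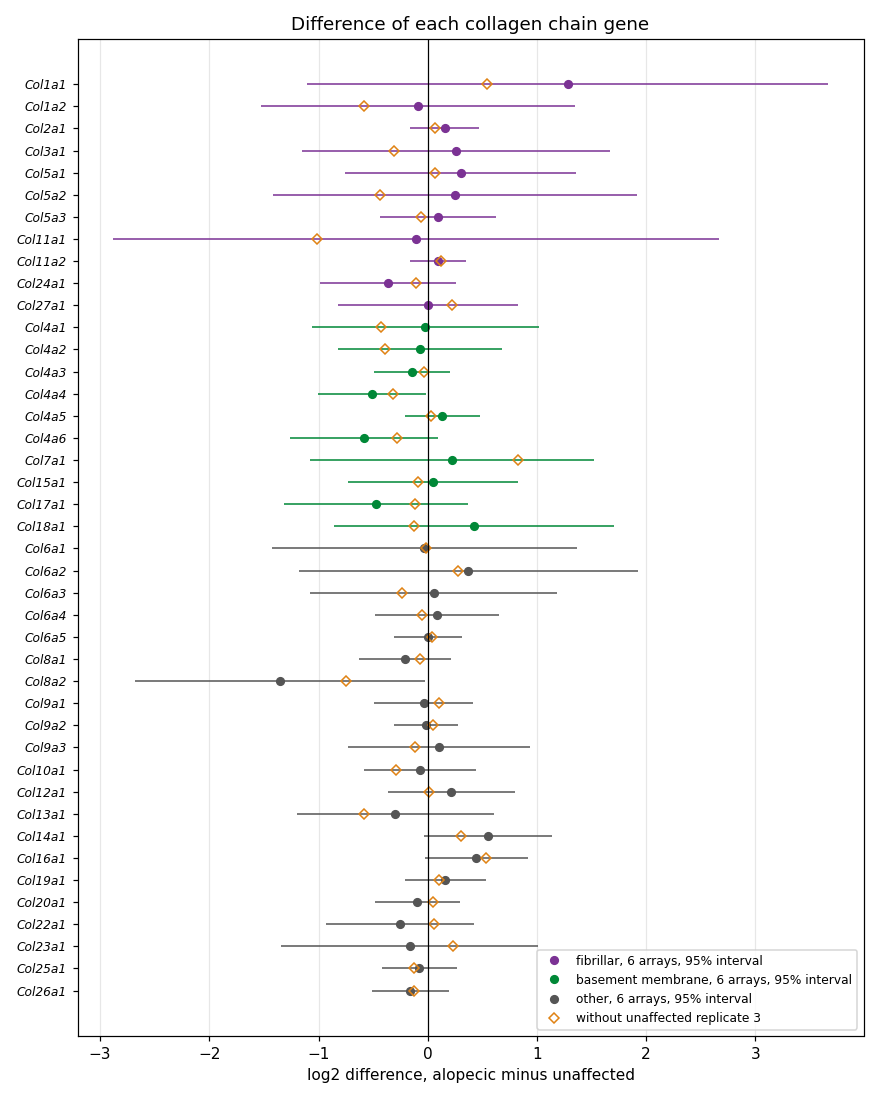
Log2 difference (alopecic minus unaffected) of each of the 42 collagen chain genes, as filled points with 95% limma intervals over 6 arrays, coloured by class. Open diamonds give the difference without unaffected replicate 3. The intervals of Col4a4 and Col8a2 lie below 0, those of Col1a1 and Col11a1 are the widest, and several diamonds lie on the other side of 0 from the filled point.

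The tissue label was checked against epidermal keratins. Krt14 and Krt5, keratins of basal epidermis, had mean log2 values of 14.15 and 14.02 in alopecic and 13.67 and 13.62 in unaffected skin. They are the 2 brightest of 7 basal epidermis markers, of which 4 were higher and 3 lower in alopecic skin, with a median of 0.09. Krt14 and Krt5 were higher, at 0.485 (SE 0.14, limma adjusted p = 0.522) and 0.40 (SE 0.15, limma adjusted p = 0.686), with all alopecic arrays above. Krt15, named after its value was seen, was lower, at -0.86 (SE 0.25, limma adjusted p = 0.533), and its groups did not overlap either. The cartilage marker list had a mean log2 level between 5.61 and 5.83 in the 6 arrays, below the lowest array median of 6.11. Unaffected replicate 3 stood apart from the other 5 arrays. The mean log2 level of 11 measured markers of the growing hair follicle was 5.88 there, against 12.13 and 12.57 in the other unaffected arrays and 10.50 to 11.71 in the alopecic arrays. In that array the adipocyte list (5 of 7 measured) also had the lowest mean, 8.10, against 8.88 to 10.93 in the other arrays. The skeletal muscle list had its highest mean there, 14.51, but it was uneven in all arrays. It was 12.62 to 13.85 in alopecic arrays, 13.49 in unaffected replicate 1 and 11.52, the lowest, in unaffected replicate 2. The difference without unaffected replicate 3 is plotted for every member, and is printed below for the 17 members whose difference moved by over 0.25 log2 units and for some others.

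Promoters are shown for 4 chains, Col1a2 and Col3a1 of the main dermal fibrils and Col4a1 and Col4a2 of the common basement membrane network, whose values per mouse are given below. RefSeq windows on GRCm38.p6, from 250 bases before to 50 bases after the annotated start, were available for 33 of the 42 members, in 36 windows. No window was used for Col1a1, Col2a1, Col4a3, Col5a2, Col9a3, Col12a1, Col14a1, Col22a1 and Col26a1. In the first pair below, capitals mark matches on either strand to CCAAT (the CCAAT box), to TATAAA (the TATA box) and to GGGCGG (the GC box), which do not overlap one another here. In the second pair, Col4a1 and Col4a2, which lie next to each other and are transcribed in opposite directions, capitals mark the 78 bases that both windows hold, read on opposite strands. The annotated starts of Col4a1 and Col4a2 lie 21 bases apart within those capitals.
Col1a2, chr6:4505368-4505667, plus strand: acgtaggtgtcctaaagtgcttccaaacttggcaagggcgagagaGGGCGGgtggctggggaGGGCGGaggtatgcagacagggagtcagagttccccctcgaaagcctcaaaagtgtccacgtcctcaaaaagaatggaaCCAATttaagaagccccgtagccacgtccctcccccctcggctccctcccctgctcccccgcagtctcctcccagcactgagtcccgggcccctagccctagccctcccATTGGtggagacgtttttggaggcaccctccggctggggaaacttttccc
Col3a1, chr1:45311288-45311587, plus strand: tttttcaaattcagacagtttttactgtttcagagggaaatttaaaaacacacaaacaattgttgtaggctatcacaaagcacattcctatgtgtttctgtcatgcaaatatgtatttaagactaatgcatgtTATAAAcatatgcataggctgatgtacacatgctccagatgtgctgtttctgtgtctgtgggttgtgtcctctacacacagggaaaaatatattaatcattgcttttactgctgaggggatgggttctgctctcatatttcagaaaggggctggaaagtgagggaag
Col4a1, chr8:11312777-11313076, minus strand: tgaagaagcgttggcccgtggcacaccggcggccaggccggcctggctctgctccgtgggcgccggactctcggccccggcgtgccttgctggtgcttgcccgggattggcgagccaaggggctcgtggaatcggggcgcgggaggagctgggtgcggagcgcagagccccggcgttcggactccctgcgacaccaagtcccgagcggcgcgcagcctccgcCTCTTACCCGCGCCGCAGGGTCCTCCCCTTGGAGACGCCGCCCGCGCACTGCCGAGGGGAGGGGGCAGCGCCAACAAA
Col4a2, chr8:11312555-11312854, plus strand: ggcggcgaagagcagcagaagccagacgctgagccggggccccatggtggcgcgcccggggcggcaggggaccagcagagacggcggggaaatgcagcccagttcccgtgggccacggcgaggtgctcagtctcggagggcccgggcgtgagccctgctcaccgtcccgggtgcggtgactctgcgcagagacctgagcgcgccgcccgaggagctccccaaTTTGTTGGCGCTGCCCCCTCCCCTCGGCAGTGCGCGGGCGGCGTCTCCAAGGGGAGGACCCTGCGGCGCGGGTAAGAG
The Col1a2 window holds CCAAT or its reverse at 2 places and GGGCGG at 2 places, and the Col3a1 window holds TATAAA at 1 place. Col4a1 and Col4a2 each hold CCAAT or its reverse, and neither holds TATAAA. Over all 36 collagen windows, CCAAT or ATTGG was found in 13, TATAAA or TTTATA in 5 and GGGCGG or CCGCCC in 22. Among all 32851 RefSeq windows of this length the shares were 37.4%, 13.6% and 35.7%. These matches describe letters and are not binding sites.

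The chains of type I collagen, the main fibril protein of dermis, did not pass the test. Col1a1, which encodes the alpha 1 chain, had log2 values of 10.87, 11.93 and 9.75 in alopecic replicates 1, 2 and 3 and 11.41, 9.21 and 8.10 in unaffected replicates 1, 2 and 3. Unaffected replicate 1 lay among the alopecic arrays, so the groups overlapped. The difference of 1.28 (SE 0.97, 95% interval -1.10 to 3.66, n = 3 each, limma adjusted p = 0.859) was the largest positive one of the 42, and it was smaller than the SD of 1.69 over the unaffected arrays. It was 0.54 without unaffected replicate 3, 2.20 without unaffected replicate 1, 1.83 without alopecic replicate 3, 0.74 without alopecic replicate 2 and -0.12 with array weights in the fit. The further probe set of Col1a1 differed by 0.13.

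Its partner chain Col1a2 had log2 values of 13.60, 13.63 and 12.34 in alopecic and 14.19, 13.35 and 12.30 in unaffected skin, a difference of -0.09 (SE 0.58, n = 3 each, limma adjusted p = 0.98). The lowest alopecic array and the lowest unaffected array lay close together, and the highest array was unaffected. The 2 further probe sets of Col1a2 differed by 0.55 and 0.96, so its direction depended on the probe set. Their mean log2 levels were 11.46 and 5.63, the second below the array medians. The difference was -0.58 (SE 0.50) without unaffected replicate 3. Col3a1, the type III chain that shares fibrils with type I, had 13.60, 13.20 and 12.55 in alopecic and 13.82, 13.03 and 11.73 in unaffected skin, a difference of 0.26 (SE 0.57, limma adjusted p = 0.944). It lay on the other side of 0, at -0.31 (SE 0.39), without unaffected replicate 3. As in Col1a2, each group spanned at least 1 log2 unit.

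Type V chains nucleate fibrils and limit their width. Col5a2 had log2 values of 11.38, 10.74 and 10.13 in alopecic and 11.55, 10.83 and 9.11 in unaffected skin, a difference of 0.25 (SE 0.68, limma adjusted p = 0.953). The alopecic arrays lay within the unaffected range, and without unaffected replicate 3 the difference was -0.44 (SE 0.42). Col5a1 had 9.15, 9.26 and 8.52 in alopecic and 9.57, 8.26 and 8.20 in unaffected skin, a difference of 0.30 (SE 0.43), or 0.065 (SE 0.45) without unaffected replicate 3. Its highest array was unaffected replicate 1, and the groups overlapped. Col5a3 differed by 0.10 (SE 0.21), or -0.064 (SE 0.20) without that array. Of the remaining fibrillar genes, Col11a1, a chain known from cartilage and from remodelled dermis, varied most. Its log2 values were 6.45, 8.16 and 5.33 in alopecic and 8.64, 6.67 and 4.94 in unaffected skin. Each group of Col11a1 spanned more than 2 log2 units and the difference was -0.11 (SE 1.12, 95% interval -2.88 to 2.67), or -1.01 (SE 0.997, 95% interval -3.56 to 1.54) without unaffected replicate 3. Col2a1, Col11a2 and Col24a1 had mean levels between 3.74 and 5.27 in both groups, below the array medians, where RMA compresses differences. They differed by 0.16, 0.10 and -0.37, with Col24a1 at -0.11 (SE 0.16) without unaffected replicate 3, and Col27a1 by 0.00 (0.005 before rounding, SE 0.33).

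**Figure D2:**
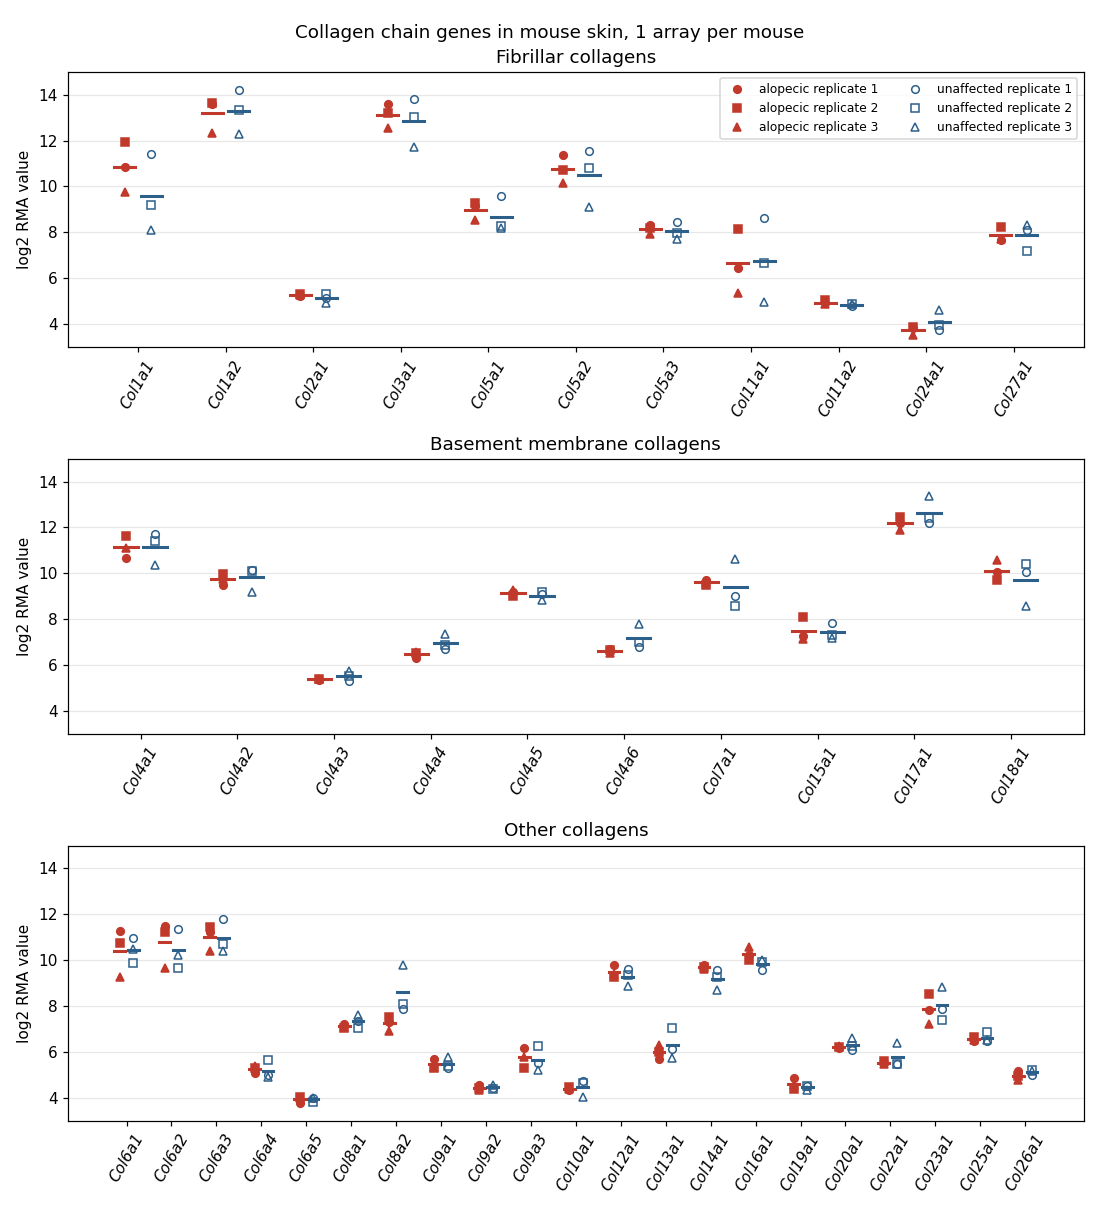
Log2 RMA values of each collagen chain gene in each mouse, by class; filled red symbols are the 3 alopecic arrays, open blue symbols the 3 unaffected arrays, and bars the group means. Heights of different genes are not comparable. The fibrillar genes Col1a1, Col3a1 and Col5a2 have their lowest value in unaffected replicate 3 (open triangle), and Col7a1, Col8a2 and Col17a1 their highest.

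Type IV chains assemble in fixed combinations, and the chains named first and second form the network found in nearly all basement membranes. Col4a1 had log2 values of 10.69, 11.65 and 11.10 in alopecic and 11.72, 11.43 and 10.36 in unaffected skin, a difference of -0.02 (SE 0.42, limma adjusted p = 0.994). Col4a2 had 9.50, 9.98 and 9.75 in alopecic and 10.16, 10.11 and 9.18 in unaffected skin, a difference of -0.07 (SE 0.30, limma adjusted p = 0.971). In both genes the alopecic arrays lay within the unaffected range. Without unaffected replicate 3 the differences were -0.42 (SE 0.31) and -0.39 (SE 0.17), with limma adjusted p of 0.72 and 0.528.

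The chains of the restricted type IV networks had other orders of arrays. Col4a4 had log2 values of 6.32, 6.54 and 6.55 in alopecic and 6.70, 6.87 and 7.37 in unaffected skin. Every alopecic array lay below every unaffected array, and the difference was -0.51 (SE 0.20, 95% interval -1.002 to -0.015, unadjusted p = 0.0453, limma adjusted p = 0.691). The further probe sets of Col4a4, with mean log2 levels of 6.12 and 4.56, differed by -0.28 and -0.24. Col4a6 had 6.692, 6.656 and 6.501 in alopecic and 6.78, 7.01 and 7.79 in unaffected skin, a difference of -0.58 (SE 0.28, limma adjusted p = 0.778). Its groups did not overlap either, but they were 0.09 apart at the nearest arrays, and the further probe set differed by -0.03. Col4a3, whose mean lay below the array medians, had log2 values of 5.36, 5.41 and 5.39 in alopecic and 5.31, 5.53 and 5.75 in unaffected skin, a difference of -0.14 (SE 0.14). Col4a5 had 9.18, 9.02 and 9.26 in alopecic and 9.08, 9.17 and 8.82 in unaffected skin, a difference of 0.13 (SE 0.14). The groups of both genes overlapped. Without unaffected replicate 3 the differences of Col4a4 and Col4a6 were -0.31 (SE 0.13) and -0.28 (SE 0.13).

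Col17a1 encodes the membrane collagen of hemidesmosomes, which anchor basal keratinocytes, and it is known to maintain hair follicle stem cells. Its log2 values were 12.21, 12.44 and 11.88 in alopecic and 12.19, 12.39 and 13.36 in unaffected skin. Apart from unaffected replicate 3, the arrays of both groups lay in the same range, and the difference was -0.47 (SE 0.34, limma adjusted p = 0.859), or -0.12 (SE 0.20) without that array. Col7a1, the anchoring fibril collagen of the epidermal junction, had 9.72, 9.48 and 9.63 in alopecic and 8.996, 8.559 and 10.603 in unaffected skin. The alopecic arrays lay close together, above unaffected replicates 1 and 2 and below unaffected replicate 3. The difference was 0.22 (SE 0.53, limma adjusted p = 0.947). Without unaffected replicate 3 it was 0.83 (SE 0.17), or 1.78-fold, with an unadjusted p of 0.00466 and a limma adjusted p of 0.264. That value was chosen after it was seen, and 10.1% of all genes had an unadjusted p under 0.05 in those 5 arrays.

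Col18a1, the basement membrane collagen whose end fragment is endostatin, had log2 values of 10.08, 9.70 and 10.57 in alopecic and 10.06, 10.42 and 8.58 in unaffected skin. Unaffected replicate 3 lay more than 1 log2 unit below every other array, and the difference was 0.43 (SE 0.52), or -0.12 (SE 0.29) without it. Col15a1, a relative found in vessel basement membranes, differed by 0.05 (SE 0.32).

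Col8a2, a short chain collagen that forms open lattices around vessels and in the cornea, had the largest negative difference of the 42. Its log2 values were 7.32, 7.51 and 6.89 in alopecic and 7.87, 8.10 and 9.81 in unaffected skin. Every alopecic array lay below every unaffected array, and unaffected replicate 3 lay far above the rest. The difference was -1.35 (SE 0.54, 95% interval -2.68 to -0.03, unadjusted p = 0.0466, limma adjusted p = 0.692), a level 2.56-fold lower. Without unaffected replicate 3 it was -0.75 (SE 0.22), or 1.68-fold lower, with a limma adjusted p of 0.374. Col8a2 has 1 probe set on this array. Its partner Col8a1 had 7.23, 7.04 and 7.08 in alopecic and 7.33, 7.04 and 7.60 in unaffected skin, a difference of -0.21 (SE 0.17). The lowest array of Col8a1 was unaffected replicate 2, so its groups overlapped.

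FACIT collagens sit on fibril surfaces, and 2 of them had groups that did not overlap, with the alopecic arrays above. Col14a1, which regulates fibril growth, had log2 values of 9.80, 9.72 and 9.61 in alopecic and 9.56, 9.25 and 8.68 in unaffected skin. The nearest arrays of the 2 groups were 0.05 apart, and the difference was 0.55 (SE 0.24, limma adjusted p = 0.738). The further probe sets of Col14a1, with mean log2 levels of 8.31 and 4.13, differed by -0.08 and -0.09. Col16a1, found near the epidermal junction, had 10.24, 10.02 and 10.56 in alopecic and 9.574, 9.897 and 10.002 in unaffected skin, a difference of 0.45 (SE 0.19, limma adjusted p = 0.736). The nearest alopecic and unaffected arrays of Col16a1 were 0.01 apart. Without unaffected replicate 3 these differences were 0.30 (SE 0.14) and 0.53 (SE 0.21). The FACIT genes Col12a1, Col19a1, Col20a1 and Col22a1 differed by 0.22, 0.16, -0.10 and -0.25, and none had an unadjusted p under 0.05. Col19a1 and Col22a1 had mean log2 levels of 4.525 and 5.65, below the array medians. Col22a1 was at 0.055 (SE 0.11) without unaffected replicate 3.

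Type VI collagen forms beaded filaments around cells from 3 main chains. Col6a1 had log2 values of 11.25, 10.73 and 9.26 in alopecic and 10.97, 9.89 and 10.49 in unaffected skin, a difference of -0.03 (SE 0.57). Col6a2 had 11.47, 11.24 and 9.67 in alopecic and 11.35, 9.68 and 10.24 in unaffected skin, a difference of 0.37 (SE 0.63). Col6a3 had 11.25, 11.46 and 10.38 in alopecic and 11.81, 10.73 and 10.39 in unaffected skin, a difference of 0.05 (SE 0.46). In all 3 genes the lowest array was alopecic replicate 3, by 0.01 log2 units in Col6a2 and Col6a3, and the groups overlapped. Leaving that array out gave differences of 0.54, 0.93 and 0.38, and leaving out unaffected replicate 3 gave -0.01, 0.28 and -0.24. Col6a4 and Col6a5 differed by 0.09 and 0.00 (0.003 before rounding). Their mean log2 levels of 5.22 and 3.92 lay below the array medians.

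Type IX chains, known from cartilage, had log2 means below the array medians in both groups. Col9a1, Col9a2 and Col9a3 differed by -0.04 (SE 0.18), -0.02 (SE 0.12) and 0.11 (SE 0.34). Col10a1, the collagen of growth plate cartilage, and Col26a1 also lay below the array medians and differed by -0.07 and -0.16. The membrane collagens Col13a1, Col23a1 and Col25a1 differed by -0.30 (SE 0.37), -0.17 (SE 0.48) and -0.08 (SE 0.14). The differences of Col13a1 and Col23a1 were -0.58 (SE 0.33) and 0.23 (SE 0.41) without unaffected replicate 3. Of these 3, Col23a1 spread most, from 7.22 in alopecic replicate 3 to 8.83 in unaffected replicate 3.

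For 34 of the 42 members the SD over the unaffected arrays was larger than the difference between the groups, as it was for 67.3% of all genes. Unaffected replicate 3 was the lowest of the 6 arrays for 18 members and the highest for 14, that is 42.9% and 33.3%, against 29.1% and 29.1% of all genes. It was the lowest for 8 of 11 fibrillar genes, with a median of -0.71 against the mean of unaffected replicates 1 and 2, where the median over all genes was -0.01. The values were -2.21 for Col1a1, -1.47 for Col1a2, -1.69 for Col3a1, -2.07 for Col5a2 and -2.72 for Col11a1. Col18a1 at -1.66, Col4a1 at -1.21 and Col4a2 at -0.96 were low there too. Col7a1 at 1.82, Col8a2 at 1.82, Col23a1 at 1.202, Col17a1 at 1.07 and Col4a6 at 0.90 were high there. These are values of 1 mouse with no test.

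Beside these values, the 11 growing hair follicle markers lay a median of -7.26 from the other unaffected arrays in that mouse, the 5 adipocyte markers -2.99, the 12 fibroblast markers -0.33, the 8 skeletal muscle markers 1.85, the 4 Schwann cell markers 0.72, the 8 endothelial markers 0.82 and the 7 basal epidermis markers 0.36. The part of any of these in the collagen values was not tested. Fibroblasts are the main source of fibrillar collagen, and the mean log2 level of their 12 markers was 9.53 to 10.35 in alopecic and 9.69 to 10.22 in unaffected arrays. Of these markers 9 were lower and 3 higher in alopecic skin, with a median of -0.29, against -0.01 over all genes. Without unaffected replicate 3, 10 were lower and 2 higher, with a median of -0.51, against 0.002 over all genes. Thy1, named after its value was seen, went the other way, at 1.09 (SE 0.37, limma adjusted p = 0.613) with all 6 arrays. Alopecic replicate 3 was the lowest array for 11 members, 26.2% against 13.5% of all genes. It had the lowest mean of the fibrillar class among alopecic arrays, 7.996 against 8.632 and 8.870, and unaffected replicate 1 had the highest of all 6, 9.03.

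**Figure D3:**
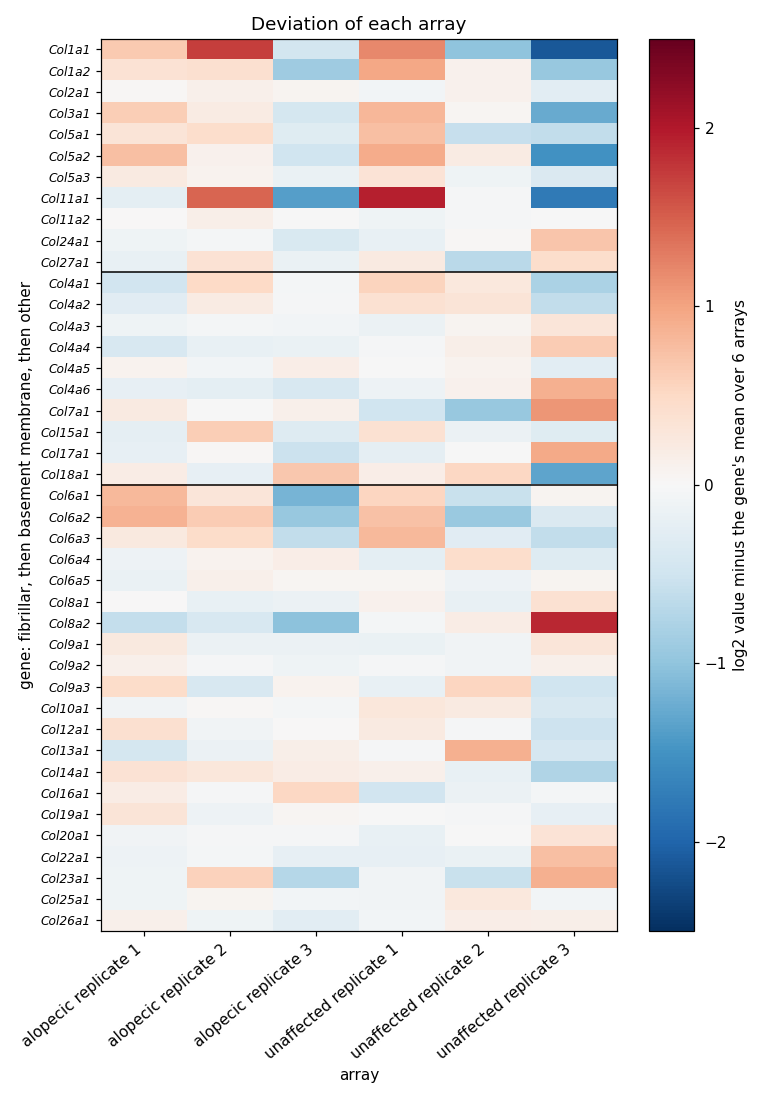
Log2 value of each array minus the gene's mean over the 6 arrays, for the 42 collagen chain genes (rows, split by class) and the 6 mice (columns); red is above and blue below the mean. Col1a1, Col3a1, Col5a2, Col11a1 and Col18a1 are blue in unaffected replicate 3, where Col7a1, Col8a2 and Col17a1 are red.

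Chains that assemble in one molecule were then set against each other over the 6 mice, for 15 pairs, with exact two-sided permutation tests over 720 orders and Benjamini-Hochberg adjustment over the pairs. This comparison was chosen after the levels had been seen. Col6a1 and Col6a2 were related (Pearson r = 0.92, exact permutation p = 0.00278, adjusted 0.0417, and Spearman rho = 1, p = 0.00278, adjusted 0.0417, n = 6). The r was 0.96 after group means were removed. Without alopecic replicate 3 and unaffected replicate 2, which lie farthest from the median of Col6a1, r was 0.86 over 4 mice. Col4a1 and Col4a2, whose starts lie side by side in the sequences above, had r = 0.97 (exact permutation p = 0.00833, adjusted 0.0625) and rho = 0.94 (p = 0.0167, adjusted 0.125, n = 6), which missed the threshold. Without alopecic replicate 1 and unaffected replicate 3 their r was 0.81.

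Col1a1 and Col1a2 had r = 0.79 (exact permutation p = 0.0806, adjusted 0.177) and rho = 0.89 (p = 0.0333, adjusted 0.167, n = 6). The r was 0.94 with the group means removed and 0.70 without alopecic replicate 2 and unaffected replicate 3. Col4a5 and Col4a6, neighbours on the X chromosome, had a negative r of -0.83 (exact permutation p = 0.131, adjusted 0.216) and rho of -0.60 (p = 0.242, adjusted 0.444, n = 6). That sign rested on unaffected replicate 3 and alopecic replicate 3, since r was 0.49 without them. Of the 15 pairs, Col6a1 with Col6a2 was the 1 pair past the threshold. Its p of 0.00278 is the smallest that 720 orders allow. A single pair among the 15 could therefore pass only at that floor, with an adjusted p of 0.0417. Col4a1 with Col4a2 missed the threshold at a higher r of 0.97, so the threshold does not set these pairs apart. Gene pairs other than these 15 were not compared. All arrays share 1 normalization, and no batch is given in the sources used here.

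**Figure D4:**
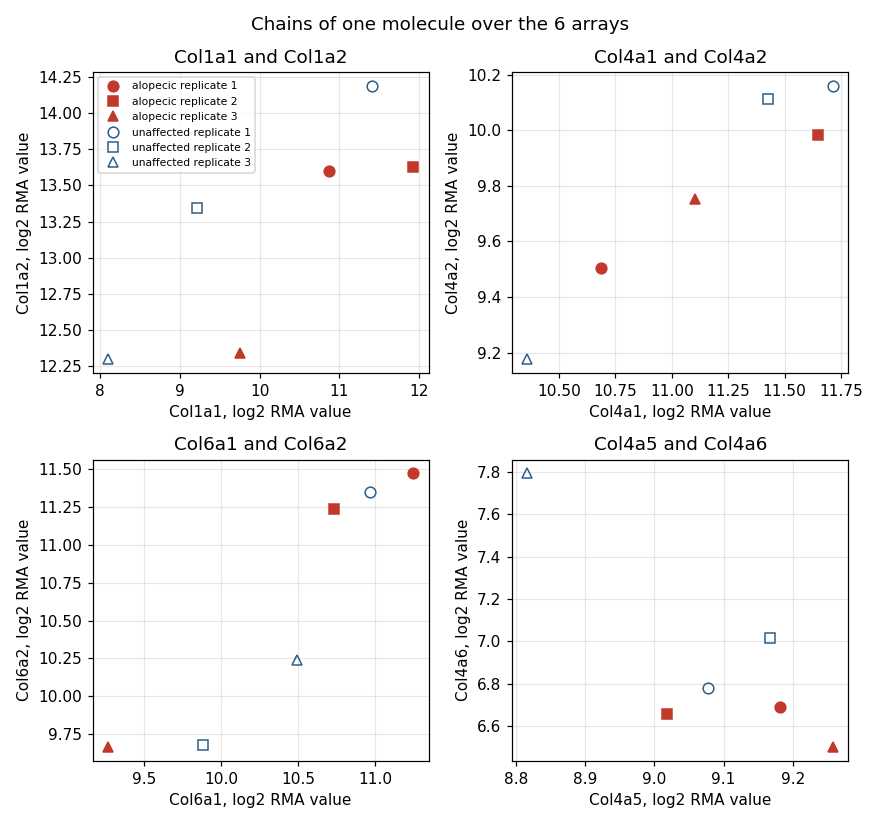
Log2 RMA values of chain pairs that share a molecule, 1 point per mouse (filled red alopecic, open blue unaffected), on axes that do not start at 0. Col4a1 with Col4a2 and Col6a1 with Col6a2 lie along rising lines in both groups, Col1a1 with Col1a2 less closely, and Col4a5 with Col4a6 is spread by unaffected replicate 3.

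Genes that make, cut and bind collagen were read from lists drawn up for the pathway. Of 26 measured genes of collagen modification and assembly, 0 rose and 0 fell (limma), and the median difference was 0.04. An unadjusted limma p under 0.05 was reached by 2 of them, both lower, where 2.35% of all genes were lower and 4.8% higher at that p. They were P3h4, a partner in lysine hydroxylation of collagen, at -0.52 (SE 0.20), and Pcolce2, an enhancer of procollagen processing, at -1.23 (SE 0.49), named after their values were seen. Without unaffected replicate 3, 3 were higher and 1 lower at that p, against 10.1% of all genes, and 0 passed. The higher ones, also named after their values were seen, were P4ha2 at 0.77 (SE 0.25), Loxl3 at 0.60 (SE 0.20) and Colgalt1 at 0.38 (SE 0.14). The lower one was Pcolce2 at -1.52 (SE 0.51), and P3h4 was at -0.54 (SE 0.23). P4hb, the disulphide isomerase that is also a subunit of prolyl hydroxylase, differed by 0.16 (SE 0.13), and Ppib, a prolyl isomerase that helps the helix fold, by 0.34 (SE 0.17). Of 17 genes of collagen breakdown 0 passed, with a median of 0.00 (0.002 before rounding) and 4 at an unadjusted limma p under 0.05, of which 3 were higher and 1 lower, against 4.8% and 2.35% of all genes. The brightest were the cathepsins Ctsb at 0.14 (SE 0.41) and Ctsl at -0.54 (SE 0.63). They differed by -0.24 (SE 0.31) and -0.91 (SE 0.65) without unaffected replicate 3.

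The 4 breakdown genes at that unadjusted p are given here, chosen after their values were seen. Mmp12, the macrophage elastase, had log2 values of 9.67, 7.04 and 7.19 in alopecic and 4.95, 4.66 and 4.24 in unaffected skin. All alopecic arrays lay above all unaffected arrays, and the difference of 3.35 (SE 0.73) missed the threshold (unadjusted p = 0.00419, limma adjusted p = 0.323). Mmp13, the main interstitial collagenase of mice, had 9.14, 5.23 and 7.05 in alopecic and 4.41, 4.50 and 4.16 in unaffected skin, a difference of 2.78 (SE 0.95, limma adjusted p = 0.613). Timp1, an inhibitor of these proteases, had 9.26, 7.70 and 7.10 in alopecic and 6.72, 6.79 and 4.999 in unaffected skin, a difference of 1.85 (SE 0.73, limma adjusted p = 0.691). Its groups did not overlap, and the difference was 1.27 (SE 0.65) without unaffected replicate 3. Its relative Timp4 had 4.78, 6.52 and 4.19 in alopecic and 6.69, 6.39 and 8.72 in unaffected skin, a difference of -2.10 (SE 0.84, limma adjusted p = 0.694). The groups of Timp4 overlapped, and without unaffected replicate 3, its highest array, the difference was -1.37 (SE 0.70, limma adjusted p = 0.6). Without that array Mmp12 and Mmp13 differed by 3.16 (SE 0.85) and 2.69 (SE 1.12). The unaffected means of Mmp12 and Mmp13 lay below the array medians, so their differences are compressed. The 7 measured leukocyte markers had a mean log2 level of 7.29 to 8.08 in alopecic and 6.60 to 7.30 in unaffected arrays, highest in alopecic replicate 1, which also had the highest Mmp12 and Mmp13. Its part in these values was not tested.

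Of 8 measured collagen receptors 0 passed, and 2 had an unadjusted limma p under 0.05, both higher, against 4.8% of all genes, with a median of 0.04. The brightest were Ddr1, a receptor kinase for collagen, at 0.29 (SE 0.15), and Itgb1, the shared beta chain of collagen integrins, at 0.02 (SE 0.26). Those at an unadjusted p under 0.05, named after their values were seen, were Lair1, an inhibitory collagen receptor of leukocytes, at 0.90 (SE 0.35, limma adjusted p = 0.691), and Itga1, the integrin chain that binds type IV collagen and is carried by some tissue T cells. Itga1 had log2 values of 7.38, 7.46 and 7.25 in alopecic and 6.68, 6.69 and 6.30 in unaffected skin, a difference of 0.80 (SE 0.15, unadjusted p = 0.00191, limma adjusted p = 0.197). Its groups did not overlap and were 0.56 apart, and the difference was 0.67 (SE 0.12) without unaffected replicate 3.

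Fibril-associated proteoglycans and glycoproteins had a median of -0.44 over 16 genes, with 11 lower and 5 higher, where 48.6% of all genes were higher and their median was -0.01, 0 past the threshold and 0 at an unadjusted limma p under 0.05. Dcn, decorin, which coats type I fibrils, differed by -0.47 (SE 0.25), and Postn, periostin, by -0.40 (SE 0.29). The list's median without unaffected replicate 3 was -0.36, with 12 lower and 4 higher. In that fit 1 gene of the list had an unadjusted limma p under 0.05, against 10.1% of all genes. It was Comp, named after its value was seen, and it was higher. Comp differed by 0.41 (SE 0.54) with all 6 arrays and by 1.03 (SE 0.20, limma adjusted p = 0.236) without unaffected replicate 3. Fmod, fibromodulin, and Tnxb, tenascin X, chosen after their values were seen, had their highest value in that array and differed by -1.65 (SE 0.89) and -0.72 (SE 0.43), or by -0.71 (SE 0.51) and -0.32 (SE 0.33) without it. Of 17 basement membrane partners 0 passed, with a median of -0.08, and 1 was lower at an unadjusted limma p under 0.05, against 2.35% of all genes. Named after its value was seen, it was Lama2, a laminin chain of muscle and nerve, at -0.78 (SE 0.19, limma adjusted p = 0.377). The brightest, the integrin chain Itga6 and the proteoglycan agrin, Agrn, differed by 0.01 (SE 0.25) and -0.01 (SE 0.16). Without unaffected replicate 3 the median of the basement membrane partners was 0.04, with 10 higher and 7 lower, and 0 passed. At an unadjusted limma p under 0.05, 1 was then higher and 1 lower, against 10.1% of all genes. They were Hspg2, named after its value was seen, at 0.75 (SE 0.28), and Lama2 at -0.72 (SE 0.21). Of 14 genes of TGF beta signalling, a pathway known to induce collagen, 0 passed, with a median of -0.07 and 1 higher at an unadjusted limma p under 0.05, against 4.8% of all genes. That was the ligand Tgfb1, named after its value was seen, at 0.93 (SE 0.25, limma adjusted p = 0.474). It was 0.67 (SE 0.14, limma adjusted p = 0.274) without unaffected replicate 3. The brightest, Smad4 and Tgfbi, differed by -0.12 (SE 0.13) and -0.66 (SE 0.39), or by -0.03 (SE 0.12) and -0.34 (SE 0.34) without it.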

How the data were processed

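Skin RNA of 6 C3H/HeJ mice was measured on 1 array per mouse, after biotin labelling with a 3' IVT kit per the labels' protocols. Values were deposited on a log2 scale, 1 for each probe set and array, and were made with RMA per the submitters' processing notes, which state no version. RMA subtracts background, brings the arrays to a common distribution and compresses differences of dim probe sets. Of 45101 probe sets, 34945 other than controls had 1 symbol, updated through RefSeq for 34741; the brightest per gene gave 18193 genes. Arrays hold no read depth, and 3 arrays per group limit the precision.

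The fit was limma 3.58.1 in R 4.3.3 (lmFit, eBayes, two-sided, all 6 arrays, no covariate), tested on simulated data. Errors of differences are standard errors of that fit. Every member may be named; values per array are given for the 4 brightest of each class, the 3 largest rises and falls, members without overlap and, in types I, IV, VI and VIII, the main chains that share a molecule with these. Col5a1, Col7a1 and Col11a1 are added. Of the other lists, the 2 brightest are named, and further genes are said to be named or chosen after their values were seen. The members and lists were chosen with earlier results of these data known. Lists are described by counts and medians. Alternatives were a replicate block, leaving out each array, a filter on dim genes, the mean of probe sets, centring, a trend with robust prior, and array weights.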

Additional observations from a re-analysis of the deposited data

How the results depend on the processing

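No collagen gene passed the threshold in any of the 12 alternative fits, where the smallest limma adjusted p of a member was 0.198. Over all genes 50 passed, 0 with the replicate block, 139 with array weights and 4 to 39 with 1 array left out; 4 passed without unaffected replicate 2, 7 without unaffected replicate 1, 14 without alopecic replicate 2, 17 without alopecic replicate 3 and 33 without alopecic replicate 1. Replicate numbers share no stated origin, so the numbers were not taken as pairs. Deviations of same-numbered arrays from their group means correlated at -0.13, -0.20 and -0.33 over genes, and those of other array pairs at -0.09 to 0.38. Such deviations sum to 0 within each group, so these values cannot decide whether arrays were paired. The block changed no call of a collagen gene.

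Medians were set against a spread between arrays, the pooled within-group SD of the median deviation per array. It was 0.115 over all members, 0.54 for fibrillar, 0.079 for basement membrane and 0.076 for other collagens. The fibrillar spread is wide. Their median ran from -0.064 without unaffected replicate 3 to 0.37 without unaffected replicate 1 and still lay within it. The medians moved by less than the spread except as follows. With dim genes left out, the median was 0.13 over the 21 members kept, 0.056 for basement membrane and 0.14 for other collagens. With arrays centred it was -0.14 for basement membrane and -0.13 for other collagens, and with array weights -0.15 over all members and -0.23 for basement membrane collagens. With 1 array left out the basement membrane median ran from -0.22 to 0.084. The cause was not tested.

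The sign of 25 members changed when 1 array was left out, and that of 17 did not. The share of all genes with such a change was not counted, so this is not read as a trait of collagens. The differences ran from -1.01 to 0.84 for Col11a1, -0.58 to 0.37 for Col1a2, -0.31 to 0.73 for Col3a1, -0.44 to 0.78 for Col5a2, -0.064 to 0.29 for Col5a3 and -0.33 to 0.23 for Col27a1. They ran from -0.42 to 0.25 for Col4a1, -0.39 to 0.10 for Col4a2, -0.19 to 0.83 for Col7a1, -0.25 to 0.25 for Col15a1 and -0.12 to 0.79 for Col18a1. They ran from -0.45 to 0.54 for Col6a1, -0.002182 to 0.93 for Col6a2, -0.24 to 0.47 for Col6a3, -0.054 to 0.32 for Col6a4 and -0.06 to 0.087 for Col6a5. They ran from -0.16 to 0.11 for Col9a1, -0.082 to 0.045 for Col9a2, -0.12 to 0.40 for Col9a3, -0.29 to 0.056 for Col10a1 and -0.58 to 0.077 for Col13a1. They ran from -0.21 to 0.051 for Col20a1, -0.42 to 0.055 for Col22a1, -0.50 to 0.23 for Col23a1 and -0.14 to 0.039 for Col25a1.

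With the mean of all probe sets the sign turned for Col11a1 (0.087), Col12a1 (-0.01), Col19a1 (-0.071), Col1a2 (0.47), Col4a5 (-0.10) and Col9a1 (0.10). Centring turned Col15a1 (-0.042), Col27a1 (-0.088), Col6a3 (-0.038), Col6a4 (-0.006991) and Col6a5 (-0.09). The array weights were 0.571, 1.405 and 2.685 for alopecic replicates 1, 2 and 3 and 2.455, 0.834 and 0.227 for unaffected replicates 1, 2 and 3. That fit therefore leaned on alopecic replicate 3 and unaffected replicate 1. It turned Col1a1 (-0.12), Col3a1 (-0.62), Col5a1 (-0.35), Col5a2 (-0.75), Col5a3 (-0.22), Col6a2 (-0.52), Col6a3 (-0.65), Col12a1 (-0.085), Col15a1 (-0.23), Col27a1 (-0.037), Col4a3 (0.005284), Col9a1 (0.014) and Col20a1 (0.077). Leaving out unaffected replicate 3 also turned Col3a1, Col5a2, Col5a3, Col6a3, Col15a1, Col9a1 and Col20a1, but not the others of this list. No member with a changed sign passed the threshold.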

Other observations

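Further probe sets carried the same gene symbols. Whether they read the same transcripts was not tested, and some had mean levels below the array medians. Of the 42 collagen genes 27 had more than 1 probe set, 40 further ones in all, and 24 of these differed in the same direction as the brightest. The 6 further probe sets whose difference lay over 0.5 log2 units from that of the brightest belonged to Col1a1, Col1a2, Col14a1 and Col4a6. The probe sets of the fibril genes Col3a1 and Col5a2 differed by 0.57 and 0.58 where the brightest differed by 0.26 and 0.25.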
